A study of Mus musculus with 9 samples.

Results

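RAW264.7 cells, a mouse macrophage-like line, were exposed for 6 hours to chylomicron-sized (CHYL-sized) emulsion particles at 1 mM, and their transcripts were compared with those of untreated control cells. The comparison rests on 3 libraries of each group, 6 of the 9 RNAseq libraries of the series. The remaining 3 came from cells given the smaller VLDL-sized particles for 6 hours at 1 mM. All 12637 genes with more than 10 estimated counts in at least 3 of the 9 libraries, of 54432 genes in the table, were examined. The particles were made from sunflower oil with sodium caseinate as emulsifier. The control cells received neither, so that oil, emulsifier and particle cannot be told apart. RAW264.7 is a single transformed line and no genetic change separated the groups. According to the methods the samples of a condition were pooled within an experiment, so each library stands for a pool. P-values measure the spread between such pools. A legend of the study gives a lower concentration for these particles than the sample labels, which were followed here.

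Chylomicrons carry dietary triglycerides from the intestine. Macrophages that take up such particles split the triglycerides in lysosomes with acid lipase, and the fatty acids set free are stored in lipid droplets, oxidized in mitochondria, or leave the cell. Fatty acids act on transcription through nuclear receptors of the PPAR family, and unsaturated fatty acids and sterols restrain the SREBP factors, which switch on lipid synthesis genes. Lipid peroxides and other electrophiles act through KEAP1 and NRF2, which switch on antioxidant genes.

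Total counts lay between 22482786 and 22856792 in the 6 libraries. The first principal component of the 9 libraries (49.1% of the variance) separated treated from control cells, and the second (14.4%) separated the libraries numbered 3 from the rest in every group. In both groups the libraries numbered 3 stood higher in the targets of ATF4: the median of 19 such genes lay 0.54 above replicates 1 and 2 in control and 0.46 above them after CHYL-sized particles, on the log2 scale. Results are therefore given per library, and the count of changed genes is given without these libraries too. Defining macrophage transcripts were abundant in every library, with Csf1r at 1243 to 1392 counts-per-million (cpm) and Lyz2 at 2233 to 2492 cpm. Adgre1, encoding F4/80, was lower at 16.1 to 25.4 cpm. Over 8 lists of markers of other cell types, the summed counts of a list were at most 57 in any of the 6 libraries. The lists for hepatocytes and epithelial cells were at 0 throughout, and those for T cells, B cells and adipocytes summed to at most 6 counts.

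After CHYL-sized particles, antioxidant, glutathione and heme genes rose most and desaturase and sterol synthesis genes fell most. Most replication and mitosis genes fell by small amounts. In all, 3249 genes changed (25.7% of those tested) with an adjusted p below 0.05 by limma-voom, where p-values here and throughout were adjusted for the 12637 genes after Benjamini and Hochberg. Of these, 1610 were higher (12.7% of the genes tested) and 1639 lower (13.0%). Counts within the gene lists below are set beside these shares as a description only. Members and lists were chosen with earlier results of these data known, so the counts are no test of the lists. Without the libraries numbered 3, 4182 of 12386 genes changed, 2150 higher and 2032 lower. With replicate number as a block in the fit, 4949 genes changed, 2468 higher and 2481 lower. When cpm were scaled by library size alone, 1068 genes rose and 2514 fell, and the median log2 fold change over the genes tested went from 0.0013 to -0.079. In bulk RNA, fewer responding cells and a smaller response per cell cannot be told apart. Most changes were small, with a median absolute log2 fold change of 0.40 among the genes that changed. Large changes were mostly rises: 55 genes rose and 18 fell by more than 2 on the log2 scale, and 26 rose and 2 fell by more than 3. Genes that rose by more than 1 took 0.953% to 1.07% of all counts in the control libraries and 3.15% to 3.66% after treatment, a description of the genes so chosen rather than a test. The share of genes called depended on level: among the 3159 genes with the highest cpm 21.0% rose and 15.1% fell, and among the 3161 with the lowest 5.4% and 6.8%, where the median standard error was 0.26 in place of 0.060.

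**Figure D1:**
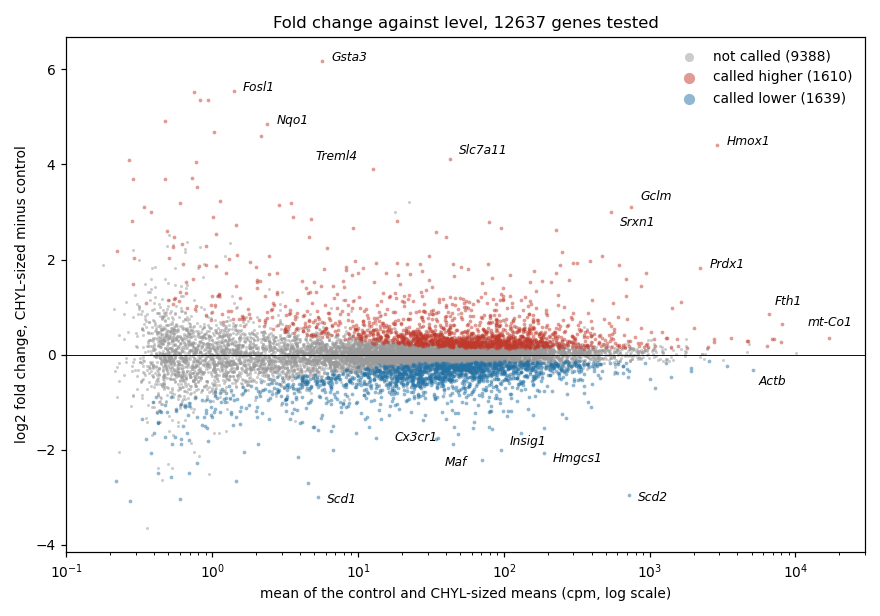
Log2 fold change (CHYL-sized minus control, vertical axis) against the mean level of the 2 groups in cpm (horizontal axis, log scale) for the 12637 genes tested, each a point, coloured where the adjusted p was under 0.05. Hmox1, Gclm, Srxn1 and Prdx1 combined a large rise with a high level, and Scd2 a large fall with a high level.

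Genes of the oxidative stress response led the rises. Of the 12 largest rises among genes with at least 50 mean counts and no overlap between groups (162 genes, 1.28% of those tested, met the rule), 6 encode enzymes or transporters of glutathione, heme, quinone or peroxide metabolism. Heme oxygenase 1 (Hmox1), which breaks heme down to biliverdin, iron and carbon monoxide, measured 203, 252 and 334 cpm in the control libraries and 4653, 5042 and 7010 cpm after CHYL-sized particles. The lowest treated library was far above the highest control library, a log2 fold change of 4.41 (SE 0.18, adjusted p = 8.99e-08). Per length of annotated exon, Hmox1 moved from rank 311 to rank 11 among the genes tested. It took 0.0213% to 0.0341% of all counts in control and 0.463% to 0.680% after treatment, the largest gain in cpm of any called gene (5305).

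Several steps of glutathione synthesis and recycling rose. The cystine carrier Slc7a11, which imports the limiting amino acid, was at 2.94, 3.67 and 8.57 cpm in control and at 69.0, 66.3 and 106 cpm after particles, and in each group replicate 3 was the highest. Its log2 fold change was 4.12 (SE 0.44, adjusted p = 8.53e-05). Gclm, the modifier subunit of the rate-limiting ligase, was at 151, 148 and 165 cpm against 1315, 1294 and 1399 cpm. This was the smallest p of the whole table, with a log2 fold change of 3.11 (SE 0.054, adjusted p = 1.98e-10). The catalytic subunit Gclc rose by 1.58, glutathione synthetase Gss by 0.72 and the reductase Gsr by 2.15 on the log2 scale. In the thioredoxin branch, Srxn1, which repairs overoxidized peroxiredoxins, was at 110, 114 and 132 cpm in control and at 850, 833 and 1212 cpm after treatment. The groups were far apart (log2 fold change 3.00, SE 0.17, adjusted p = 8.62e-07). Thioredoxin reductase Txnrd1 rose by 1.89 and the peroxiredoxin Prdx1 by 1.82, from 925 to 1040 cpm in control to 3295 to 3771 cpm. Over the list of this system, 13 of 23 genes tested rose and 1 fell (Gpx1, log2 fold change -0.43), with a median of 0.26.

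The promoters of Gclm and Gsta3 are shown because each is the gene of its list with the largest change whose RefSeq promoter (250 bases before to 50 after the start, GRCm38.p6) holds the letters TGACNNNGC, the core of the antioxidant response element that NRF2 binds with small MAF proteins. Capitals mark the match, on either strand. Gclm lies at chr3:122245307-122245606 (+ strand) and Gsta3 at chr1:21240335-21240634 (+ strand), with matches that begin at bases -134 and -121 from the start.
Gclm: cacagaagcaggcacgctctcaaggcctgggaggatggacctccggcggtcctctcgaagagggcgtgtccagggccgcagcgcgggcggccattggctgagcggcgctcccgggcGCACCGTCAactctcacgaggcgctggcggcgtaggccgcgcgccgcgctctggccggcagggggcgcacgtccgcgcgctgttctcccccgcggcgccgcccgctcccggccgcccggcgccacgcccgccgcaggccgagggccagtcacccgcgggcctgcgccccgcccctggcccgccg
Gsta3: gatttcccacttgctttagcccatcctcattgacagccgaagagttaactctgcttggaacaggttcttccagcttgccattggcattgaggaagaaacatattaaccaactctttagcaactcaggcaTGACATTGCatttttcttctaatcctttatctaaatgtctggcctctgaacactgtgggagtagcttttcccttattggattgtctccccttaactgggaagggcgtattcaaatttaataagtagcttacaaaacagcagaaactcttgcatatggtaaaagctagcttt
Such a match was found in 17.0% of the promoters of all genes tested (9344 with an entry), in 20.2% of those of genes called higher, 16.1% of those called lower and 23.3% of those that rose by more than 1. In the list of the glutathione and thioredoxin system it was 5 of 20.

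Several glutathione transferases and quinone reductases went from near 0 to a measurable level. Gsta3, an alpha-class transferase, had 2, 3 and 5 counts in control and 239, 228 and 280 counts after particles, the largest fitted log2 fold change of the genes named (6.18, SE 0.43, adjusted p = 4.38e-06). Its paralog Gsta2 had 1, 0 and 0 counts against 24.7, 22.7 and 51.9, and reads may be shared between related genes of this class. Nqo1, a quinone reductase commonly used as an NRF2 readout, went from 0.0421 to 0.252 cpm to between 3.98 and 5.49 cpm (log2 fold change 4.85). Cbr3, a carbonyl reductase, rose by 2.81 and Akr1b8, an aldo-keto reductase, by 2.08, from a control level of 168 to 200 cpm to between 745 and 791 cpm. In all, 12 of 25 genes of this list rose, none fell and 13 did not pass, with a median of 0.22. Conjugates of these enzymes leave the cell through ABCC transporters, of which Abcc1 rose by 1.71, Abcc5 by 1.42, Abcc4 by 0.81 and, at a low level, Abcc2 by 1.86. Of 9 efflux transporters tested 5 rose and none fell.

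Heme and iron handling changed beyond Hmox1. Slc48a1, which brings heme out of the lysosome, was at 155, 152 and 171 cpm in control and at 609, 622 and 642 cpm after treatment. The iron exporter ferroportin (Slc40a1) was at 60.0, 68.1 and 61.4 cpm against 445, 417 and 322 cpm. Neither gene's groups overlapped, with log2 fold changes of 1.97 and 2.63. Biliverdin reductase Blvrb rose by 1.76 and the lysosomal metal carrier Slc11a1 by 1.15. The ferritin chains Fth1 and Ftl1, which store iron, were already among the most abundant transcripts and rose by 0.85 and 0.65, so that together they took 1.08% to 1.24% of all counts in control and 1.72% to 1.86% after particles. The transferrin receptor Tfrc measured 320 to 354 cpm in control and 339 to 367 cpm after treatment, without passing the test. Of 20 genes, 12 rose and 1 fell (Aco1, the iron-responsive aconitase, by -0.30), with a median of 0.45.

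Several enzymes of the pentose phosphate branch and of the supply of NADPH, which feeds these reductases, rose as well. The pentose phosphate dehydrogenases G6pdx (342 to 385 cpm in control, 747 to 773 cpm after particles) and Pgd (395 to 440 cpm, then 949 to 1000 cpm), transaldolase Taldo1 and malic enzyme Me1 had log2 fold changes of 1.08, 1.23, 0.78 and 1.15. Rpia, the isomerase of the same branch, fell by 0.53. Over the list 6 of 14 rose and 3 fell. Catalase (Cat), the peroxisomal peroxide-splitting enzyme, rose by 1.92 and Osgin1, an oxidative stress-induced growth inhibitor, by 1.91. The metallothioneins Mt1 and Mt2 rose by 0.61 and 0.77, with Mt2 at 74.2 to 108 cpm against 114 to 208 cpm, replicate 3 being the highest in both groups. Sesn1 fell by 1.20 while its paralog Sesn2 rose by 0.89.

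Among the regulators, Nfe2l2, which encodes NRF2, was at 255, 248 and 347 cpm in control and 244, 250 and 283 cpm after treatment. These libraries overlapped, with a log2 fold change of -0.11 (adjusted p = 0.51). Bach1, a repressor at NRF2 target sites, rose by 1.27, the small MAF partners Maff and Mafg by 1.15 and 0.58, and Keap1 by 0.27. The large MAF factor Maf, of a different function in macrophage identity, fell by 2.21 and is described with that group.

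**Figure D2:**
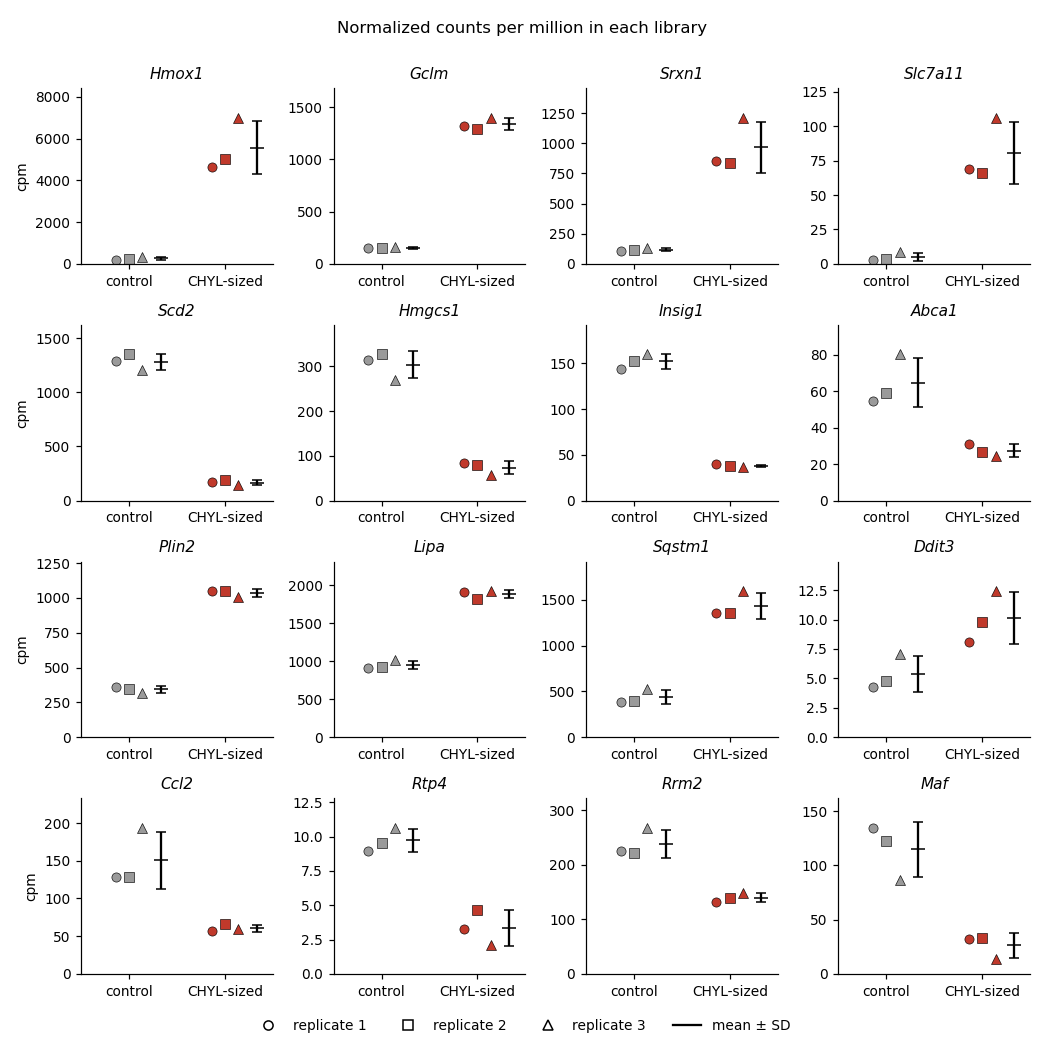
Cpm in each of the 6 libraries (vertical axes, from 0; symbols give the replicate number) with the mean and SD of the 3 libraries of a group, for 16 genes. In all 16 panels the control and CHYL-sized libraries are separate. The replicate 3 symbol (triangle) lies apart in several, among them Slc7a11, Maf, the treated groups of Hmox1 and Srxn1 and the control groups of Ccl2 and Sqstm1.

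Lipid synthesis moved the other way. All 9 tested enzymes from acetyl-CoA to squalene other than Ggps1 fell (Ggps1, which makes geranylgeranyl diphosphate on a side branch, rose by 0.76), and 9 of 10 enzymes from squalene to cholesterol fell, with medians of -1.07 and -1.19. The first committed synthase Hmgcs1 was at 314, 327 and 269 cpm in control and at 84.3, 78.7 and 56.9 cpm after particles, a log2 fold change of -2.06 (SE 0.15, adjusted p = 6.57e-06). Later enzymes fell too, among them Mvd (-1.66), Fdft1 (-1.56), Cyp51 (-1.65), Msmo1 (-1.53) and Sqle (-1.34). Together the genes of both lists made up 0.305% to 0.353% of all counts in control and 0.144% to 0.152% after treatment. For the VLDL-sized particles, which were compared with the same control libraries, the medians were -1.13 and -1.22.

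The SREBP system fell with its targets. Srebf2, the factor for sterol genes, fell from 483 to 498 cpm to between 318 and 321 cpm, and Srebf1, the factor for fatty acid genes, from 148 to 160 cpm to between 64.0 and 71.2 cpm. Insig1, a retention protein in the endoplasmic reticulum (ER) and itself an SREBP target, was at 144, 152 and 160 cpm against 39.5, 37.3 and 37.1 cpm (log2 fold change -2.00, SE 0.059, adjusted p = 1.06e-08). Its homolog Insig2 rose by 0.26. Stard4, a cytosolic sterol carrier, fell by 1.23.

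The promoters of Hmgcs1 and Cyp51, the genes of both lists with the largest falls, are shown for the letters that SREBP and its partner NF-Y bind. In capitals are CCAAT (or its complement), the NF-Y site, and TCACNCCAC, a sterol response element. The Hmgcs1 promoter (chr13:119690101-119690400, + strand) held 4 CCAAT matches and 1 sterol element, which began at base -137 from the start. The Cyp51 promoter (chr5:4104648-4104947, - strand) held 1 CCAAT match, at base -29.
Hmgcs1: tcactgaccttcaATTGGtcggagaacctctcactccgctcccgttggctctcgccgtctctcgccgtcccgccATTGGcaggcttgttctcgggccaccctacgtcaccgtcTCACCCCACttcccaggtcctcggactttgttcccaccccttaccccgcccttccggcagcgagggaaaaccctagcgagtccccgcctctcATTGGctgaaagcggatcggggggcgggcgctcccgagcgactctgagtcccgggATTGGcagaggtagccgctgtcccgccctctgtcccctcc
Cyp51: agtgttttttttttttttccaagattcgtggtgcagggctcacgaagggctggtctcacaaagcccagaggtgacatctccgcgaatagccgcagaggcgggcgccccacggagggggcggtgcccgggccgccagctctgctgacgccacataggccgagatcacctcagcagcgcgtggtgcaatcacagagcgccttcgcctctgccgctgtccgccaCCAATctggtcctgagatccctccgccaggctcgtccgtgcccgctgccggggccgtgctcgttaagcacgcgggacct
A CCAAT match was present in 15 of the 16 promoters found for the mevalonate and sterol lists (93.8%), against 43.4% of all genes tested. The sterol element letters were in 1 of the 16 (6.25%) against 1.33%. Over the promoters of all genes called lower, CCAAT was in 48.8%, and in 54.5% of those that fell by more than 1.

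In fatty acid synthesis the desaturases stood out. Scd2, the most abundant stearoyl-CoA desaturase transcript, whose enzyme makes monounsaturated fatty acids, was at 1287, 1352 and 1205 cpm in control and 173, 186 and 140 cpm after particles, a log2 fold change of -2.95 (SE 0.10, adjusted p = 3.19e-08). Its paralogs Scd1 and Scd4 had log2 fold changes of -3.00 and -2.04 and fell from levels of 8.53 to 10.3 and 2.53 to 2.79 cpm, and reads may be shared between the 3 genes. Fasn, fatty acid synthase, fell by 1.09, the carboxylase Acaca by 0.91, Acly by 0.80 and the polyunsaturated fatty acid desaturases Fads1 and Fads2 by 0.47 and 0.63. Me1 and the mitochondrial carboxylase Acacb rose. Over the list 8 of 14 fell and 2 rose.

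**Figure D3:**
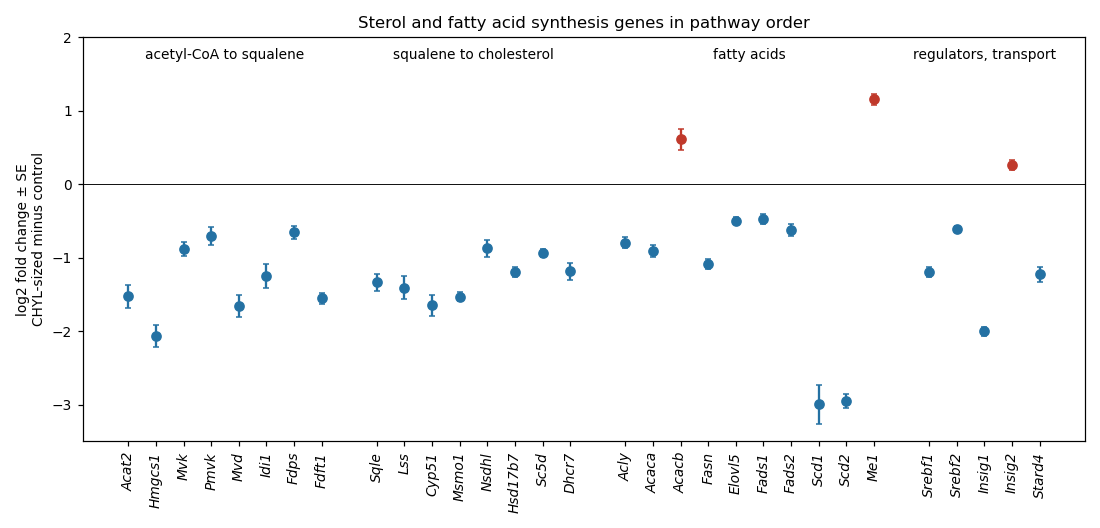
Log2 fold change with its standard error (vertical axis) for 31 called genes of sterol and fatty acid synthesis, regulation and transport, in pathway order (horizontal axis), blue where called lower and red where called higher. Acacb, Me1 and Insig2 lie above 0, and Scd1 and Scd2 lie lowest at -3.00 and -2.95. The genes drawn are a selection, and Ggps1, which also rose, is not among them.

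Of 13 cholesterol efflux genes, which LXR receptors switch on when sterols accumulate, 6 fell, none rose and 7 did not pass. The lipid pump Abca1 was at 54.8, 59.3 and 80.4 cpm in control and at 31.1, 26.6 and 24.5 cpm after treatment (log2 fold change -1.23, SE 0.17, adjusted p = 0.000443). Abcg1 fell by 0.90 and Arl4c by 1.15. Apoe was near the detection limit at 0.989 to 1.93 cpm.

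Storage and oxidation genes showed a narrower response. Perilipin 2 (Plin2), the coat protein of lipid droplets and a PPAR target, was at 363, 349 and 316 cpm in control and at 1049, 1050 and 1005 cpm after particles, with a log2 fold change of 1.60 (SE 0.061, adjusted p = 5.55e-08). Cpt1a, which admits long-chain fatty acids to mitochondria, was at 42.8, 39.4 and 41.95 cpm against 130, 118 and 129 cpm. The groups were far apart for both genes. Hilpda, an inhibitor of adipose triglyceride lipase, rose by 1.22 and the carnitine carrier Slc25a20 by 0.75. Angptl4, an LPL inhibitor and PPAR target, measured 10.7 to 11.96 cpm in control and 9.52 to 11.3 cpm after treatment and did not pass the test. Among 20 lipid-sensitive genes 8 rose and none fell, with a median of 0.023 that turned to -0.057 under library size only. Of 21 oxidation genes 4 rose and 1 fell, 23.8% called against 25.7% of all genes tested.

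Of 19 genes of lipid droplets and triglyceride turnover 5 rose and 5 fell. Without control replicate 3 there were 8 higher and 4 lower, and 3 higher and 4 lower without control replicate 1 or CHYL-sized replicate 1. Without CHYL-sized replicate 2 or 3, 4 rose and 3 fell. The lipase Pnpla2 rose by 0.37, whereas Lpin1, the phosphatidate phosphatase on the way to triglyceride, fell by 1.75 (19.5 to 22.1 cpm, then 5.20 to 6.91 cpm) and Acsl3, an acyl-CoA synthetase of nascent droplets, by 1.18. Dgat1 stayed between 14.4 and 16.0 cpm in all 6 libraries. Dgat2, which also makes triglyceride, fell by 0.64 at a level of 2.73 to 6.17 cpm.

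Most of the abundant uptake genes described here moved little. Lipoprotein lipase (Lpl), which binds and splits triglyceride-rich particles, was abundant at 866 to 881 cpm and rose to between 970 and 1048 cpm, a log2 fold change of 0.21 (SE 0.048, adjusted p = 0.00836). The scavenger receptor Msr1 measured 758 to 788 cpm and 750 to 775 cpm and did not pass. Marco, another scavenger receptor, rose by 1.30 from 2.06 to 2.96 cpm, and Cd36, the fatty acid translocase, rose by 2.03 but had at most 0.592 cpm in any of the 6 libraries and lost its call without control replicate 1 or 2, with DESeq2, with limma-trend and without the filter. Lrp1 and Scarb1 fell by 0.38 and 0.45. Of the caveolar genes, Cav1 was listed at 0 counts and Cavin1 at no more than 4, while Cav2 lay between 73.3 and 88.1 cpm without a call. Clathrin heavy chain Cltc rose by 0.36 and flotillin Flot1 by 0.36. Of 14 endocytosis genes 3 rose and none fell, 21.4% called against 25.7% of all genes tested. With library size only 1 rose and 2 fell. Outside this list Dab2, an adaptor of clathrin-coated pits, fell by 0.70 on the log2 scale.

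In the lysosome, the acid lipase Lipa was at 914, 928 and 1018 cpm in control and at 1913, 1824 and 1928 cpm after treatment, a log2 fold change of 0.99 (SE 0.051, adjusted p = 4.93e-07). The cholesterol exporter Npc1 rose by 0.31 and the alpha-galactosidase Gla by 0.56, while Stard3, a sterol transfer protein of late endosomes, measured 45.6 to 51.1 cpm and 45.9 to 48.8 cpm. The cathepsins Ctsb, Ctsd and Ctsl were among the most abundant transcripts, and of these 3 only Ctsd passed, with a log2 fold change of 0.18. Over 28 proteases and hydrolases 2 rose and 3 fell, 17.9% called against 25.7% of all genes tested. Without control replicate 3 there were 1 and 5, and without control replicate 1 or 2 or CHYL-sized replicate 1 or 2 none rose and 2 fell. Of 24 genes of the V-ATPase and TFEB list 12 rose and 1 fell, led by the pump subunit Atp6v1h (0.68), the factor Mitf (0.63) and, at 0.17 to 1.69 cpm, Tfec (2.28). Tfeb itself fell by 0.87. Of 20 autophagy genes 10 rose and none fell. The receptor Sqstm1, which gathers cargo and also binds KEAP1, was at 387, 398 and 530 cpm against 1356, 1357 and 1599 cpm (log2 fold change 1.72), and Gabarapl1, an ATG8 homolog of the autophagosome membrane, rose by 1.40.

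Stress genes downstream of ATF4 rose, and no other pathway list set the libraries numbered 3 so far apart within each group. The factor Atf4 measured 213, 208 and 356 cpm in control and 338, 360 and 536 cpm after particles, so that control replicate 3 lay among the treated libraries. Its log2 fold change was 0.68 (SE 0.21, adjusted p = 0.039), and 0.73 without the libraries numbered 3. The call was lost without control replicate 1 or 2, without CHYL-sized replicate 2 or 3, with DESeq2 and when only the groups compared entered the fit. Ddit3, encoding CHOP, was at 4.24, 4.76 and 7.11 cpm against 8.10, 9.80 and 12.4 cpm. Gdf15, a stress cytokine, rose by 1.85, Ppp1r15a, a phosphatase subunit that ends the translation block, by 1.30, Atf3 by 1.26, Trib3 by 1.18 and the asparagine synthetase Asns by 0.57. In all 13 of 19 genes rose and none fell, with a median of 0.70. Without the libraries numbered 3 it was 17 of 19. The count was 9 without control replicate 1 or 2 and 10 without CHYL-sized replicate 3. Without control replicate 2 the median was 0.564. Of 18 aminoacyl-tRNA synthetases 6 rose, led by Eprs (0.75). That count was 2 without control replicate 1 or 2, 4 without CHYL-sized replicate 3, and 11 without control replicate 3 or without all libraries numbered 3. The glycine transporter Slc6a9 and the branched-chain transporter Slc43a2 rose by 1.75 and 1.05. Of 24 chaperones and sensors of the ER 2 rose with all libraries and 8 without those numbered 3. Hspa5, the main ER chaperone BiP, was at 986 to 1060 cpm and 1048 to 1204 cpm and did not pass.

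Most cytosolic chaperones and proteasome subunits rose. Of 14 heat shock genes 11 rose and none fell, with a median of 0.47. The inducible HSP70 gene Hspa1b, at 1.01, 1.26 and 1.16 cpm in control and 4.52, 3.04 and 3.76 cpm after treatment, had the largest fold change (1.69), and its near-identical neighbour Hspa1a was listed with at most 1.17 counts, so that reads may have been shared. At far higher levels, Hspa8 rose from 1505 to 1700 cpm to between 2298 and 2581 cpm (0.56) and Hsph1, a nucleotide exchange factor, from 86.7 to 106 cpm to between 192 and 217 cpm (1.07). Of 31 proteasome subunits 19 rose and none fell, with log2 fold changes of 0.077 to 1.01 over all 31. The regulatory subunit Psmd11 was the highest.

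The Hspa1b promoter (chr17:34959189-34959488, - strand) is shown for its heat shock element, searched as GAANNTTC and marked in capitals, which began at base -104 from the start.
Hspa1b: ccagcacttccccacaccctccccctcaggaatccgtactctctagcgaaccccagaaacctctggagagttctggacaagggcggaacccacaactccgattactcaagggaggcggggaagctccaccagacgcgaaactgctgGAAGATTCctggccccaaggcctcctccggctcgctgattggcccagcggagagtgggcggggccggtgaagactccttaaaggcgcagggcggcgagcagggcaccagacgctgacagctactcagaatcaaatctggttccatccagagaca
This element was found in 6 of 10 promoters of the heat shock list (60.0%) and in 6.93% of those of all genes tested. Over the promoters of all genes called higher it was in 6.5%, and in 7.98% of those that rose by more than 1.

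Inflammatory genes changed in both directions, and among chemokines and interferon-stimulated genes more fell than rose. The monocyte chemoattractant Ccl2 was at 129, 129 and 194 cpm in control and at 56.6, 65.8 and 58.9 cpm after particles, a log2 fold change of -1.29 (SE 0.14, adjusted p = 9.67e-05). Its neighbour Ccl7 was at 4.71, 4.76 and 9.60 cpm against 1.64, 1.17 and 1.23 cpm (log2 fold change -2.15, and -1.76 without the libraries numbered 3). Ccl4 fell by 0.51, while Ccl3 ranged from 91.4 to 116 cpm over both groups. Of 14 chemokines 5 fell, 1 rose (Pf4, 0.29) and 8 did not pass, and 3 fell without control replicate 3. The fractalkine receptor Cx3cr1 was at 54.8, 53.3 and 103 cpm against 16.1, 15.0 and 25.5 cpm, a log2 fold change of -1.87, and 9 of 19 receptors fell, with the TNF receptor Tnfrsf1b the 1 that rose (0.88). Without CHYL-sized replicate 1 or 3 there were 5 and 6 receptors lower.

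Of 38 interferon-stimulated genes 19 fell and none rose, with a median of -0.43. The count lower was 13 without control replicate 1 and 14 without control replicate 2 or CHYL-sized replicate 3. It was 29 with replicate number as a block. Against the control mean, the medians of CHYL-sized replicates 1, 2 and 3 were -0.354, -0.279 and -0.635 on the log2 scale. Rtp4 was at 8.95, 9.56 and 10.7 cpm in control and at 3.28, 4.68 and 2.10 cpm after treatment (log2 fold change -1.60). The nucleotide kinase Cmpk2 fell by 1.34 and Ifit1, which binds foreign RNA, by 1.18, both without overlap between groups. Ifit1 lost its call without CHYL-sized replicate 2 or 3 and without all libraries numbered 3. The factors Irf9 and Irf1 fell by 0.61 and 0.51. Isg15 and Irf7 had log2 fold changes of -0.42 and -0.45 and did not pass. In the Ifit1 promoter (chr19:34640639-34640938, + strand) the interferon-stimulated response element, searched as GAAANNGAA, was found 3 times, partly overlapping, and is in capitals.
Ifit1: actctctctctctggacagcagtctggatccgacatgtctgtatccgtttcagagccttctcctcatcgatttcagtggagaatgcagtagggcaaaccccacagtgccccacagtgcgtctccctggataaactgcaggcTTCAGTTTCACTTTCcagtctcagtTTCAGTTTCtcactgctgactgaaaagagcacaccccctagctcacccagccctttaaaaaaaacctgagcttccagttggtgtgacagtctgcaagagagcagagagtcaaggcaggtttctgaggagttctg
The element was present in 17 of 30 promoters of the list (56.7%) and in 8.74% of those of all genes tested. Over the promoters of all genes called lower it was in 9.86%, and in 17.2% of those that fell by more than 1.

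In the list of Toll-like receptors and their adaptors 9 of 21 genes fell, 4 rose and 8 did not pass. Tlr5, Tlr8, Tlr9, Tlr7 and Tlr4 fell by 0.99, 0.71, 0.63, 0.55 and 0.36, while the adaptor Ticam1 rose by 0.65. The inflammatory cytokine Tnf measured 23.9 to 28.2 cpm in control and 19.8 to 26.1 cpm after particles. Il1b and Il6 had at most 3 and 4 counts in a library and were not tested. Genes that rose were Il1f9 (1, 2 and 1 counts in control, 47, 28 and 59 after treatment, at least 14.9-fold higher), Casp1 by 0.72 and Ptgs2, encoding the inducible cyclooxygenase, from 10.1 to 16.2 cpm to between 25.7 and 30.6 cpm (1.12). The constitutive cyclooxygenase Ptgs1 fell by 0.61 and the lipoxygenase Alox5 by 0.79. Ptger2, a prostaglandin E2 receptor, and Pla2g7, the lipoprotein-associated phospholipase, rose by 2.33 and 1.67.

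Among phagocyte surface genes Treml4 rose most. Treml4, a receptor that binds dead cells, was at 1.76, 1.39 and 1.59 cpm in control and at 25.0, 22.1 and 24.5 cpm after particles (log2 fold change 3.90, SE 0.16, adjusted p = 9.05e-08). The elastase Mmp12 rose from 930 to 1242 cpm to between 1911 and 2898 cpm, and the C-type lectins Clec4n, Clec4d and Clec4e by 1.68, 0.88 and 0.88. Trem2, the lipid receptor of foam cells, measured 356 to 369 cpm and 352 to 391 cpm, and Gpnmb 115 to 171 cpm and 128 to 189 cpm. Neither passed. Trem1 and Clec5a fell by 0.67 and 0.89. Of 18 genes 8 rose and 3 fell.

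Identity factors were divided. Maf was at 135, 123 and 86.5 cpm in control and at 32.5, 33.2 and 13.3 cpm after particles, a log2 fold change of -2.21 (SE 0.33, adjusted p = 0.000737), and -1.97 without the libraries numbered 3. Klf2, which restrains inflammatory genes, fell by 1.65 and the complement genes C1qa, C1qb and C1qc by 0.85, 0.39 and 0.45. Cebpa, a myeloid factor, rose from 7.12 to 8.32 cpm to between 26.0 and 34.1 cpm (1.94). Spi1, encoding PU.1, measured 268 to 306 cpm and 252 to 283 cpm. Of 30 genes 4 rose and 11 fell.

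In signalling, Fosl1, a subunit of AP-1, had 1, 0 and 2.02 counts in control and 40.2, 37.2 and 106 after treatment, at least 20.4-fold higher. Besides Fosl1, Il1f9 and Gsta2, the genes with at most 3 counts in each control library and at least 20 in each treated one were Met, the hepatocyte growth factor receptor (0, 0 and 2 against 29, 20 and 59 counts, at least 12-fold higher), and the unnamed gene Gm28650 (2, 1 and 2 against 35, 31 and 32, at least 10.9-fold higher). Gsta2 was at least 11-fold higher. No gene met the same limits in the opposite direction. Other AP-1 genes moved less: Jun measured 97.1 to 108 cpm and 85.5 to 99.2 cpm, Fos 9.85 to 10.6 cpm and 5.79 to 9.71 cpm, and neither passed. The phosphatases Dusp1 and Dusp5 rose by 1.65 and 1.72, and the RNA-binding protein gene Zfp36l1 fell by 1.53 from 81.8 to 99.3 cpm.

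Also among the 12 largest rises were Rnf183, a ubiquitin ligase of the ER (1.10 to 1.18 cpm, then 7.13 to 10.1 cpm), Cdcp1, a membrane substrate of SRC kinases, and the uncharacterized A530064D06Rik. Cdcp1 depended on replicate, at 0.294, 0.674 and 1.71 cpm in control and 3.81, 3.69 and 11.2 cpm after treatment, with a standard error of 0.85 on its log2 fold change of 2.90, and it lost its call without control replicate 1 or 2. Among the 12 largest falls (102 genes, 0.807% of those tested, met the rule) were Elavl4, a neuronal RNA-binding protein gene, from 7.03 to 8.44 cpm to between 1.05 and 1.35 cpm, Bahcc1, Adgrg5 and Hcar2, the receptor for nicotinic acid and beta-hydroxybutyrate, from 10.3 to 11.4 cpm to between 2.23 and 2.92 cpm.

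Most replication and mitosis genes fell by small amounts. Of 37 genes of DNA replication and S phase 28 fell and none rose, with a median of -0.38, and of 33 genes of mitosis and G2/M 25 fell and none rose, with a median of -0.28. The ribonucleotide reductase subunit Rrm2 was at 226, 222 and 269 cpm in control and at 132, 139 and 148 cpm after particles (log2 fold change -0.77). Cdc6, which loads the replicative helicase, fell by 0.99 and the helicase subunits Mcm2 to Mcm7 by 0.19 to 0.65. The mitotic kinases Plk1 and Aurkb fell by 0.51 and 0.55. Mki67, the common marker of cycling cells, measured 859 to 939 cpm in control and 770 to 928 cpm after treatment, and Pcna 555 to 594 cpm and 599 to 732 cpm. Neither passed. Upstream, cyclin D1 (Ccnd1) was at 523, 528 and 446 cpm against 284, 289 and 194 cpm (-0.98), cyclin E1 (Ccne1) fell by 0.70, the inhibitor Cdkn1a rose by 0.32 and the p53 antagonist Mdm2 by 0.82. Among 17 p53 targets 7 rose and 3 fell, and Plk2 rose by 1.52.

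The Plk1 promoter (chr7:122159185-122159484, + strand) is given for the cell cycle homology region TTTGAA, in capitals, through which mitotic genes are silenced outside G2 and M. It began at base 31 after the start.
Plk1: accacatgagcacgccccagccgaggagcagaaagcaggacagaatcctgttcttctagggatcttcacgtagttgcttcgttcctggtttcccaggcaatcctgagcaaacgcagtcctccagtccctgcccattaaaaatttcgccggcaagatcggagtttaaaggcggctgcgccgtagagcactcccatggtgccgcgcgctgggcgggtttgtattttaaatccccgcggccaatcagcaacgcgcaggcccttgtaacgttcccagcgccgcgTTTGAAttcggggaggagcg
These letters were in 22 of 28 promoters of the mitosis list (78.6%) and in 14.5% of those of all genes tested, and CCAAT was in 23 of 28 (82.1%). Over the promoters of all genes called lower, TTTGAA was in 17.9%, and in 14.1% of those that fell by more than 1.

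**Figure D4:**
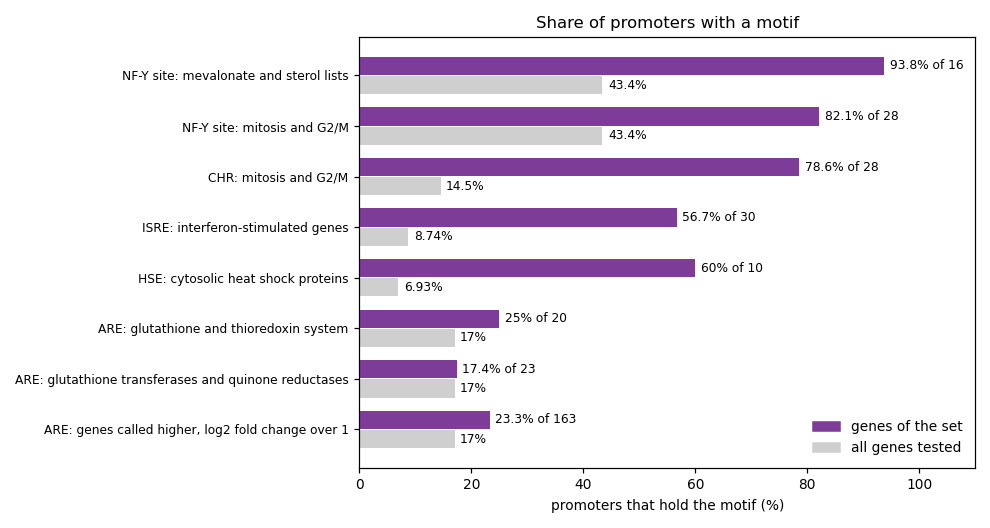
Share of RefSeq promoters (250 bases before to 50 after the start) that hold each motif on either strand (horizontal axis, percent), for the named set of genes (purple, with the number of promoters) and all genes tested (grey). The NF-Y site (43.4% in all genes) and CHR stand far above the background in the sterol and mitosis sets, whereas the antioxidant element ARE is near 17.0% in the glutathione transferase set (17.4%). Apart from the genes called higher, the sets are chosen lists, and their shares describe the lists rather than the response.

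Mitochondrially encoded transcripts rose slightly. Of 13 mitochondrially encoded genes 10 rose, by 0.17 to 0.35, and none fell. Of 37 nuclear subunits of oxidative phosphorylation, 0 passed in either direction with limma-voom, edgeR or DESeq2, and 3 had an unadjusted p under 0.05 with limma-voom. Their log2 fold changes lay between -0.092 and 0.15. mt-Co1, a subunit of cytochrome c oxidase and among the most abundant transcripts, was at 15620, 14940 and 14080 cpm in control and at 18760, 19090 and 19090 cpm after particles. The mitochondrial genes took 5.47% to 5.89% of all counts in control and 6.49% to 6.78% after treatment. In glycolysis the glucose transporter Slc2a1 rose by 1.53, from 69.1 to 92.9 cpm to between 204 and 260 cpm, and the hypoxia gene Bnip3 by 0.85. Pkm, Pgk1, Aldoa and Eno1 rose by 0.26 to 0.36, while Ldha measured 801 to 809 cpm and 787 to 898 cpm without passing. Of 26 genes 10 rose and 2 fell.

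Housekeeping and other abundant transcripts moved in part. Actb, encoding beta-actin, was at 5532, 5309 and 6084 cpm in control and at 4552, 4678 and 4271 cpm after treatment, the largest loss in cpm of any called gene (-1141). It fell by 0.32 on the log2 scale, Actg1 by 0.23, and the tubulins Tubb5 and Tuba1b by 0.48 and 0.35. Dab2, an adaptor of clathrin-coated pits, fell by 0.70, from 1298 to 1373 cpm to between 802 and 860 cpm. Sirpa, the receptor for the don't-eat-me signal CD47, fell by 0.51 and Spp1 by 0.27. Of 38 cytosolic ribosomal proteins 2 rose and none fell, with a median of 0.10. The count was 0 without control replicate 1 or 2 or CHYL-sized replicate 2 or 3 and with library size only, 4 without control replicate 3, 5 without CHYL-sized replicate 1 and 12 without all libraries numbered 3. The nuclear RNA Malat1 rose by 0.83 and Mir22hg, the host transcript of a microRNA, by 1.97.

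**Figure D5:**
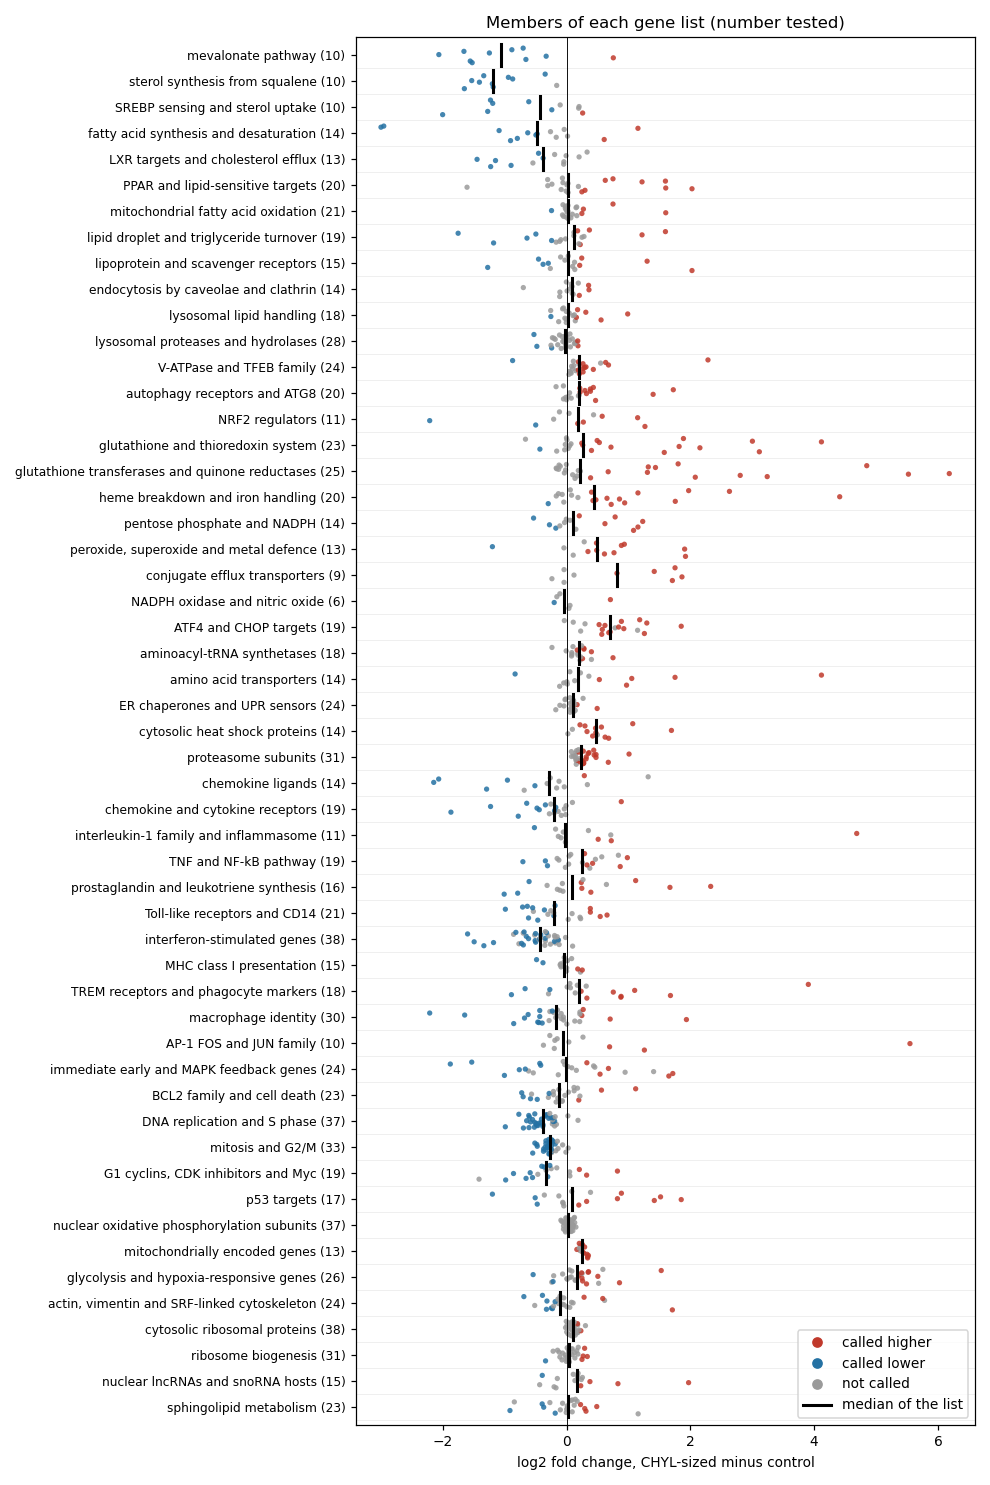
Log2 fold change (horizontal axis) of every tested member of 53 gene lists (rows, with the number tested); red and blue points were called higher and lower, grey points were not called, and the black bar is the median. Sterol and fatty acid lists lie to the left, glutathione, heme and efflux lists reach far to the right, and the replication and mitosis lists lie mostly below 0.

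Set against the VLDL-sized particles directly, no gene differed at an adjusted p under 0.05 with limma-voom (0.0% of 12637), and 813 had an unadjusted p under 0.05. EdgeR called none (812 unadjusted) and DESeq2 called 24, while without the libraries numbered 3 limma-voom called 257 of 12386. Limma-voom with replicate number as a block called 147. The 2 particles share the control libraries, so their values are given side by side only. For VLDL-sized particles the log2 fold changes against control were 4.78 for Hmox1, 3.15 for Gclm, -3.16 for Scd2 and 1.81 for Plin2, where CHYL-sized particles gave 4.41, 3.11, -2.95 and 1.60.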

How the data were processed

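RNA of RAW264.7 cells (3 libraries in each of 3 groups) was sequenced by the study, and per the labels and the submitters' processing notes reads were quantified with Salmon 0.14.1 against GRCm38.p6. The authors deposited estimated counts per gene from tximport, which hold 54432 genes, of which 54346 were given a symbol from the reference annotation, whose release differs from that used for counting. The scaling by transcript length named in the methods was not visible in the values, 58.3% of those above 10 being whole. All 9 columns were matched to a sample by name.

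The fit took all 9 libraries and the genes that exceeded 10 counts in 3 or more of them, by limma-voom (limma 3.58.1, TMM factors from edgeR 4.0.16, R 4.3.3), and CHYL-sized was contrasted with control. P-values were adjusted by Benjamini-Hochberg over 12637 genes. Cpm values are TMM-scaled. Per-length levels are mean cpm divided by annotated exon length. Total counts per library (22393893 to 22856792 over the series) set the counting precision, with 3 counts taken as the floor for folds against groups near 0. On simulated counts for 12491 genes with 200 changed, 93% were recovered with 7 false calls, 83.6% at 1.5-fold and 100% at 4-fold. The changed genes had mean counts of at least 50 and folds of 1.5, 2 or 4, and no shift of the libraries numbered 3 was simulated. In the data a larger share of genes changed, and their median change was below the smallest simulated fold. The simulated rates therefore do not carry over to this comparison.

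Genes were named as the 12 largest rises and falls (adjusted p below 0.05, log2 fold change beyond 1 either way, 50 or more mean counts where higher, libraries of the groups not overlapping), the 8 largest gains and losses of cpm, genes that went from at most 3 to at least 20 counts, and in each list the key members, those with the largest changes and the most abundant. Members and lists were chosen with earlier results of these data known. Some genes that the rule names are not reported here. Lists were described by counts and medians without a test. Promoters were taken from RefSeq (27025 entries). As alternatives the counts were tested with DESeq2 1.42.0 (rounded), edgeR (quasi-likelihood) and limma-trend (prior count 2), under other scalings and filters, within the 6 libraries, with a block for replicate number, and with libraries left out in turn.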

Additional observations from a re-analysis of the deposited data

How the results depend on the processing

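Against 3249 genes called, edgeR called 3241, DESeq2 3231 and limma-trend 3227, upper-quartile scaling 3260, a minimum of 50 counts 3233 of 10722, no filter 2797 of 25588 and the 6 libraries alone 3107. With library size only, 29.8% of the called genes were higher, against 49.6%. Leaving out libraries gave 2320 (without control replicate 1) to 4182 (without all libraries numbered 3). The methods describe replicate experiments with the samples of each condition pooled within an experiment. Sources used here do not say that a library number marks such an experiment. Deviations of same-numbered control and CHYL-sized libraries correlated at 0.124, 0.0684 and 0.338 over genes, while control replicate 1 correlated more with CHYL-sized replicate 2 (0.155). Those numbered 3 correlated best with each other. Deviations were taken from means of 3 libraries, so the shift of those numbered 3 also enters the correlations of replicates 1 and 2. The correlations of the pairs numbered 1 and 2 therefore cannot decide whether libraries were paired. A fit with replicate block called 4949 genes, and 147 between CHYL-sized and VLDL-sized particles. That contrast gave 24 with DESeq2, and 0 to 257 when libraries were left out, with 1 each without CHYL-sized replicate 2 and without VLDL-sized replicate 3. Genes switched on numbered 5 to 8, with 8 without control replicate 3 and without all libraries numbered 3. The cause was not tested.

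Of 181 called genes named here, 162 kept the call in every one of the 16 alternatives in which they were tested, and none of the 181 changed direction. The 19 others were Aco1, Atf4, Cd36, Cdcp1, Ctsd, Dgat2, Eno1, Flot1, Gpx1, Ifit1, Insig2, Keap1, Lpl, Lrp1, Mt2, Pf4, Sesn2, Spp1 and Tlr4. Lpl lost its call with library size only and Lrp1 without control replicate 2. Calls lost among the 181 numbered 11, 12 and 7 without control replicates 1, 2 and 3, and 7, 12 and 9 without CHYL-sized replicates 1, 2 and 3. Signs turned only among genes that were not called. With library size only they were Adgre1 (-0.08), Ctsb (-0.02), Ldha (-0.03), Tfrc (-0.02) and Trem2 (-0.02). Adgre1 measured -0.001 with the groups compared alone. With libraries left out the ranges were -0.14 to 0.19 for Adgre1, -0.22 to 0.21 for Apoe, -0.13 to 0.06 for Ccl3, -0.07 to 0.02 for Dgat1, -0.05 to 0.32 for Gpnmb, -0.13 to 0.0081 for Mki67, -0.2 to 0.04 for Nfe2l2 and -0.24 to 0.02 for Tnf. Depth limits the 3161 genes with the lowest cpm, where the median standard error was 0.263 on the log2 scale.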
